A study of Mus musculus with 12 samples.

Results

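The genes described here are 10 regulators of mRNA stability and translation: the tristetraprolin (TTP) family Zfp36, Zfp36l1 and Zfp36l2, the Roquin genes Rc3h1 and Rc3h2, Malt1, Arid5a, Khsrp, Elavl1 and Ago2. They were taken by symbol from a table of 56980 mouse gene IDs, and all 10 passed the filter on low counts that left 15110 genes for testing. RNA was sequenced from bone marrow-derived macrophages grown for 7 days in medium conditioned by L929 cells, a source of macrophage growth factor. The 12 libraries form 4 groups of 3. The cKO_M0 and WT_M0 groups are RankCre-Regnaes3cKO and wildtype macrophages labelled M0, read here as the cultures without stimulation, and the cKO_M1 and WT_M1 groups are the same genotypes stimulated with 100 ng/ml of lipopolysaccharide (LPS) together with 10 ng/ml of interferon-gamma. The genotype label names a conditional knockout of Regnase-3, the RNA-binding protein of the gene Zc3h12c, by a Cre recombinase named for Rank, a receptor known for its role in osteoclast formation. The labels do not give the animals' age or sex, the strain, the Cre status of the wildtype mice, the duration of stimulation, or whether libraries of a group came from separate animals. P-values therefore measure the spread between these libraries, which may be technical.

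An inflammatory mRNA is often short-lived because proteins read elements in its 3′ untranslated region (3′ UTR). TTP, the product of Zfp36, and its relatives from Zfp36l1 and Zfp36l2 bind AU-rich elements and recruit the deadenylase complex CCR4-NOT, and in macrophages TTP limits Tnf mRNA. The Roquins, from Rc3h1 and Rc3h2, bind stem-loops and share targets with Regnase-1, the product of Zc3h12a. MALT1 is a paracaspase that cleaves Regnase-1 and Roquins, while ARID5A stabilizes some of their targets, Il6 among them. KSRP, from Khsrp, promotes the decay of AU-rich mRNAs, HuR, from Elavl1, often stabilizes them, and Argonaute 2, from Ago2, carries microRNAs to their targets.

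Several of these regulators carry the AU-rich element they are known to read. The 9-letter core TTATTTATT was searched on the sense strand, overlapping matches included, in the longest annotated 3′ UTR of each gene in GENCODE M21 on build GRCm38. It was found in 7 of the 10 genes and in 968 of the 12259 tested genes that have a 3′ UTR, or 7.90%. Long 3′ UTRs hold it more often, so the share was also taken among genes whose 3′ UTR was within 20% of the member's length. That share was 4.72% for the 774 bases of Zfp36, 8.94% for the 1835 bases of Zfp36l1, 8.99% for the 1822 bases of Zfp36l2 and 46.8% for the 11064 bases of Ago2. For Rc3h1 it was 23.3%, for Rc3h2 21.0% and for Elavl1 17.9%, and these genes also hold the core. The sites of the 4 genes that hold it and were called between the genotypes in M1 are shown as DNA, 5′ to 3′ on the sense strand, with the core in capitals. All of them lie on the minus strand of GRCm38, in the 3′ UTR.
Zfp36, chr7:28376961-28376969: tgacgactTTATTTATTgtattaag
Zfp36l1, chr12:80108177-80108185: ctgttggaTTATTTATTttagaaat
Zfp36l2, chr17:84184924-84184932: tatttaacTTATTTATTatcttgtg
Ago2, first site, chr15:73105743-73105751: aatggaatTTATTTATTcttccatt
Ago2, second site, chr15:73097849-73097857: aatactttTTATTTATTttgtgcct

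Rc3h1 and Rc3h2 each had 1 such core, and Elavl1 had 8, several of them overlapping, between bases 3794 and 3848 of its 4218-base 3′ UTR. Malt1, Arid5a and Khsrp had none in the 3′ UTR searched. A match describes the letters present and was not tested as a binding site.

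The 250 bases before the start site were available for 7 of the 10 genes in RefSeq on GRCm38.p6, and 7 motifs were searched there on both strands. Of these 7 genes, Zfp36 alone had a match to the GAS element TTCNNNGAA, the kind of site that interferon-activated STAT factors are known to bind, which 7.02% of 32851 such windows hold. It also held a CArG box, known as a serum response factor motif, which 1.47% of windows hold. Both are shown because Zfp36 was among the members with the highest levels after stimulation. They lie on the gene's strand, which is the minus strand, and capitals mark the motif, which starts 17 bases before the start site for GAS and 58 bases before it for the CArG box.
Zfp36 GAS, chr7:28379237-28379245: acagcctgacTTCTGCGAAccgacagt
Zfp36 CArG box, chr7:28379277-28379286: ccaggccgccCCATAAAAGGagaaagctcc

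The AP-1 motif TGANTCA, present in 6.75% of windows, matched in Rc3h1 and Zfp36l1, and TATAAA, present in 12.4%, matched in Zfp36l1. Arid5a, Rc3h2, Elavl1 and Khsrp held no match to any of the 7 motifs, the others being the NF-kB consensus, in 3.90% of windows, the interferon-stimulated response element (ISRE), in 2.98%, and the CRE TGACGTCA, in 1.55%. No binding was measured in these samples.

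The libraries held 41721452 to 42197986 counts each. Summed markers of macrophages reached 18977 to 21147 CPM (counts scaled to library size, for these marker sums on library totals alone) in cKO_M0 and 17444 to 23092 CPM in WT_M0, with 12628 to 14085 CPM in cKO_M1 and 11554 to 12821 CPM in WT_M1. Summed markers of stimulated macrophages reached 6641 to 7588 CPM in cKO_M1 and 4844 to 5710 CPM in WT_M1, against at most 91.7 CPM in cKO_M0 and 94.2 CPM in WT_M0. Of other cell types, B and plasma cell markers summed to 39.6 to 70.1 CPM in cKO_M0 and 62.0 to 81.4 CPM in WT_M0, and to at most 0.595 CPM in cKO_M1 and 3.72 CPM in WT_M1. Mast cell and basophil markers summed to 4.08 to 7.26 CPM in cKO_M0 and 8.05 to 8.79 CPM in WT_M0, with Fcer1a at 0 in every group. Neutrophil markers stayed at or below 13.4 CPM in every library. The part of these markers in the results was not tested, and in bulk RNA fewer cells of a type cannot be told apart from less RNA per cell. Zc3h12c itself, the gene the knockout is named for, had, in CPM on the TMM scale used for all single genes, 98.4, 104 and 127 CPM in cKO_M1, against 176, 192 and 159 CPM in WT_M1, a log2 fold change of -0.68 (adjusted p = 0.00101, edgeR). In M0 it had 13.6, 18.5 and 14.8 CPM in cKO_M0, against 17.2, 16.4 and 15.6 CPM in WT_M0, which overlap.

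Levels below are CPM scaled by the trimmed mean of M-values (TMM), and differences are log2 fold changes with their standard error (SE) from edgeR's quasi-likelihood test, fitted over all 12 libraries. A gene is called where its Benjamini-Hochberg adjusted p over all 15110 genes is under 0.05. Between genes, levels are compared as CPM per kilobase of the deposited gene length. That length was 3470 bases for Zfp36, 3530 for Zfp36l2 and 19624 for Rc3h2. It may differ from the length of the transcripts present in these cells. Orders, shares and sums over genes depend on it, whereas the tests of each gene do not.

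In unstimulated macrophages, 1 of the 10 regulators was called between the genotypes. Arid5a, at -0.45, was lower in cKO_M0, and 9 of the 10 log2 fold changes were below 0, with a median of -0.16 against 0.01 over all tested genes. The background of this comparison was 1.61% of tested genes called in either direction and 0.953% called lower. The cKO_M0 and WT_M0 libraries did not overlap for 7 of the 10 genes, where 26.2% of all tested genes did not overlap.

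In stimulated macrophages, 5 of the 10 were called between the genotypes. Zfp36 and Zfp36l1 were higher in cKO_M1, and Zfp36l2, Malt1 and Ago2 were lower. The background was 18.6% called, with 8.98% called higher and 9.67% called lower. Libraries did not overlap for 6 of the 10, against 33.7% of all tested genes. The median log2 fold change of the 10 was -0.02, against 0.02 over all tested genes. Whether the genotype difference itself changed with stimulation was tested as an interaction, which was called for Zfp36l1 and Zfp36l2, higher for Zfp36l1 and lower for Zfp36l2, where the background was 8.16% called, 4.02% higher and 4.14% lower.

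**Figure D1:**
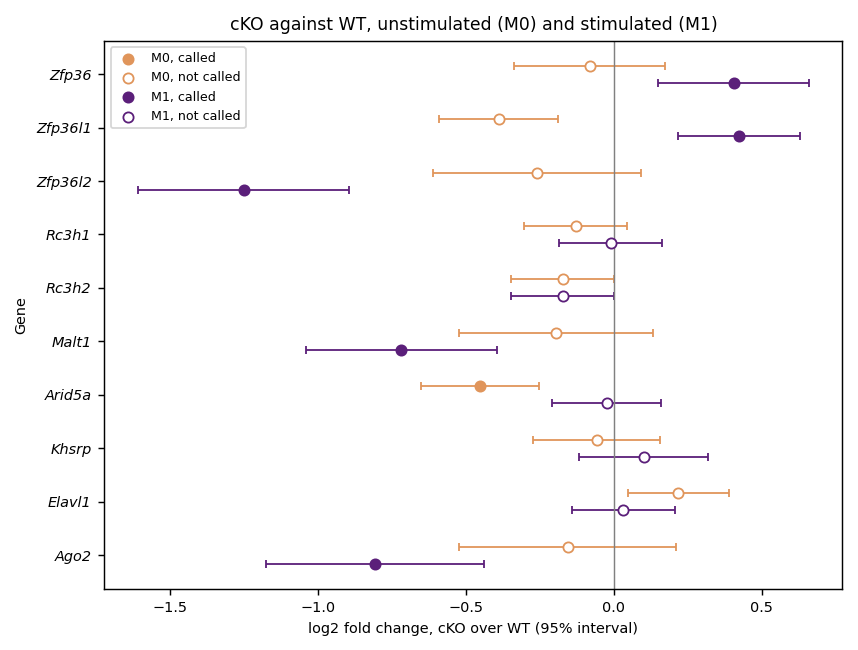
Points give the log2 fold change of cKO over WT for each of the 10 genes, in M0 (orange) and in M1 (purple), with 95% confidence intervals from edgeR; filled points were called. In M1, Zfp36l2 at -1.25, Ago2 at -0.81 and Malt1 at -0.72 lie to the left of 0, Zfp36 at 0.41 and Zfp36l1 at 0.42 lie to the right, and in M0 Arid5a at -0.45 is the filled point.

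Stimulation moved 8 of the 10 in each genotype. In cKO macrophages, 5 were higher and 3 lower in cKO_M1 than in cKO_M0, where 70.2% of tested genes were called, 34.2% higher and 36.0% lower. In WT macrophages, 6 were higher and 2 lower in WT_M1 than in WT_M0, where 71.4% were called, 34.2% higher and 37.1% lower. The M1 and M0 libraries did not overlap for 8 of the 10 in cKO, against 72.7% of all tested genes, and for 8 of the 10 in WT, against 75.6%. These shares are near those of all genes, so the counts are not particular to the 10 genes. The genotype and stimulation comparisons share libraries and are set side by side, with no overlap drawn between them.

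**Figure D2:**
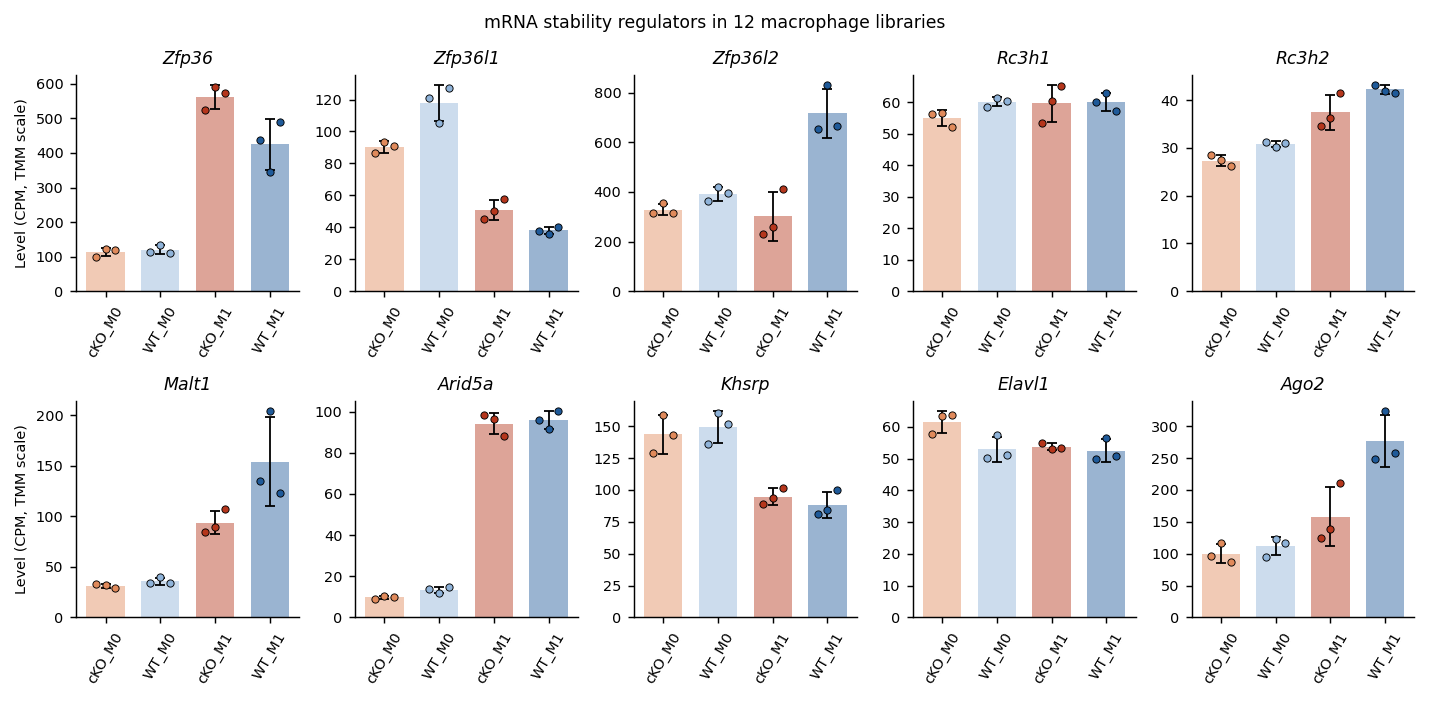
Each panel shows 1 gene, with its TMM-scaled level in CPM on a linear axis from 0, a point per library, a bar at the mean and error bars of 1 SD (n = 3 per group). Zfp36l2, Malt1 and Ago2 reach their highest group means in WT_M1 at 717, 154 and 277 CPM, Zfp36 reaches its highest in cKO_M1 at 563 CPM, and Rc3h1 and Elavl1 stay within a narrow range.

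Within the TTP family, Zfp36, which encodes TTP itself, rose most with stimulation and was higher in cKO than in WT macrophages after it. It had 524, 591 and 573 CPM in cKO_M1, against 439, 346 and 489 CPM in WT_M1. Every cKO_M1 library lay above every WT_M1 library, by 0.41 (SE 0.12, 95% interval 0.15 to 0.66, adjusted p = 0.0277, edgeR). In M0 the libraries overlapped, at 99.5, 121 and 119.9 CPM in cKO_M0, against 114, 134 and 111 CPM in WT_M0, and the difference of -0.08 had an interval of -0.34 to 0.17. Zfp36 rose by 2.31 in cKO_M1 over cKO_M0 (SE 0.13, adjusted p = 1.44e-10, edgeR) and by 1.82 in WT_M1 over WT_M0 (SE 0.12, adjusted p = 2.04e-09, edgeR). The interaction was 0.49 and was not called (SE 0.17, adjusted p = 0.0896, edgeR). The call in M1 was lost when any of 4 libraries was left out, with an adjusted p of 0.130 and a log2 fold change of 0.26 without WT_M1 replicate 11, 0.109 without cKO_M1 replicate 8, 0.0554 without cKO_M1 replicate 9 and 0.0547 without WT_M1 replicate 10 (edgeR).

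Zfp36l1, whose product promotes decay of AU-rich mRNAs and is known for roles in lymphocyte development, fell with stimulation in both genotypes, and less so in cKO. It had 44.996, 50.4 and 57.4 CPM in cKO_M1, against 37.6, 36.1 and 40.2 CPM in WT_M1, with no overlap and a log2 fold change of 0.42 (SE 0.10, adjusted p = 0.00688, edgeR). In M0 it had 86.3, 93.5 and 90.6 CPM in cKO_M0, against 121, 106 and 127 CPM in WT_M0. Here the cKO_M0 libraries all lay below the WT_M0 libraries, by -0.39 (SE 0.09), which missed the threshold (adjusted p = 0.0525, edgeR). Zfp36l1 fell by 0.82 in cKO_M1 relative to cKO_M0 (adjusted p = 1.37e-06, edgeR) and fell by 1.64 in WT_M1 relative to WT_M0 (adjusted p = 4.68e-10, edgeR). The difference between these responses was 0.81 (SE 0.14, 95% interval 0.52 to 1.10, adjusted p = 0.00336, edgeR). The M0 difference was called in 7 of 14 fits with another setting or a library left out, among them DESeq2 with an adjusted p of 0.00778.

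Zfp36l2, a decay factor of the same family known for its roles in oocytes, blood stem cells and thymocytes, showed the widest gap between genotypes of the 10. It had 231, 258 and 414 CPM in cKO_M1, against 653, 832 and 665 CPM in WT_M1. The highest cKO_M1 library lay below the lowest WT_M1 library, and the cKO_M1 mean was 42.0% of the WT_M1 mean. The log2 fold change was -1.25 (SE 0.17, 95% interval -1.61 to -0.89, adjusted p = 0.000177, edgeR). In M0 it had 315, 354 and 315 CPM in cKO_M0, against 364, 419 and 394 CPM in WT_M0, a difference of -0.26 that was not called (95% interval -0.61 to 0.09, adjusted p = 0.416, edgeR).

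Stimulation left the genotypes in different places for Zfp36l2. Its level was -0.12 in cKO_M1 relative to cKO_M0, which was not called (95% interval -0.48 to 0.23, adjusted p = 0.514, edgeR), while it rose by 0.87 in WT_M1 over WT_M0 (SE 0.17, adjusted p = 0.000224, edgeR). The interaction was -0.99 (SE 0.23, 95% interval -1.49 to -0.49, adjusted p = 0.0183, edgeR). The call was lost without cKO_M1 replicate 8 (adjusted p = 0.0585, edgeR). Without cKO_M1 replicate 9, the library at 414 CPM, the change in cKO became -0.42 and was called lower (adjusted p = 0.00318, edgeR).

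Set against gene length, the makeup of the family differed between the genotypes after stimulation. Zfp36 made up 61.8% ± 6.08 (SD, n = 3) of the family's CPM per kilobase in cKO_M1 and 36.3% ± 6.65 in WT_M1, with ranges of 54.8% to 65.4% and 28.7% to 41.1%. Zfp36l2 made up 31.7% ± 6.15 in cKO_M1, against 59.9% ± 6.90 in WT_M1. Its share in WT_M1 was close to its share before stimulation, which was 59.7% ± 1.55 in cKO_M0 and 59.99% ± 1.57 in WT_M0. Zfp36l1 made up 6.45% ± 0.072 in cKO_M1 and 3.76% ± 0.250 in WT_M1, against 19.4% ± 0.496 in cKO_M0 and 21.4% ± 2.64 in WT_M0.

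The family's summed level was 264 ± 35.2 CPM per kilobase in cKO_M1, against 338 ± 12.5 in WT_M1, with the highest cKO_M1 library at 302 and the lowest WT_M1 library at 324. In M0 the sum was 155.8 ± 9.82 in cKO_M0 and 185 ± 8.08 in WT_M0. No test was run on shares or sums, and these values describe the 3 libraries of each group. With other gene lengths, the leading gene of a group and the gap between the sums may change.

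**Figure D3:**
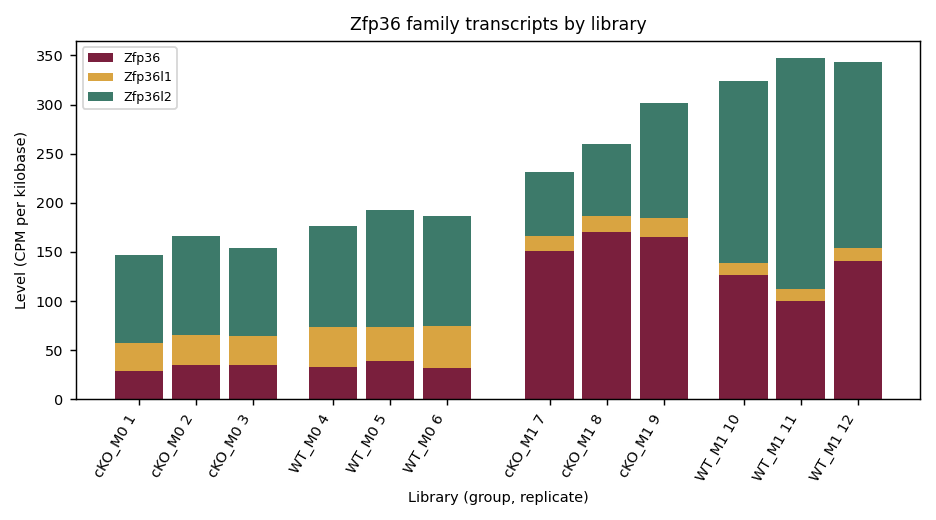
Stacked bars give the levels of Zfp36, Zfp36l1 and Zfp36l2 in CPM per kilobase of deposited gene length in each of the 12 libraries, from 0. The parts of a bar depend on those lengths. In the 3 cKO_M1 libraries Zfp36 takes up 54.8% to 65.4% of the bar, whereas in the 3 WT_M1 libraries Zfp36l2 takes up 54.9% to 67.8%.

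Neither Roquin gene was called between the genotypes. Rc3h1, encoding Roquin-1, had 53.4, 60.4 and 65.1 CPM in cKO_M1, against 60.1, 62.8 and 57.2 CPM in WT_M1, and 56.3, 56.7 and 52.2 CPM in cKO_M0, against 58.6, 61.5 and 60.5 CPM in WT_M0. The M1 libraries overlapped, and the M0 libraries did not. Its genotype difference was -0.01 in M1, with an interval of -0.18 to 0.16, and -0.13 in M0, with an interval of -0.30 to 0.04. It was not called after stimulation either, at 0.11 in cKO (adjusted p = 0.221, edgeR) and 0.00 in WT (adjusted p = 0.968, edgeR).

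Rc3h2, encoding Roquin-2, had 34.5, 36.3 and 41.5 CPM in cKO_M1, against 43.2, 41.9 and 41.6 CPM in WT_M1, and 28.5, 27.4 and 26.1 CPM in cKO_M0, against 31.3, 30.1 and 31.0 CPM in WT_M0. The genotypes did not overlap in M1 or M0, and the difference was -0.17 in each, with intervals of -0.35 to 0.00 and adjusted p-values of 0.157 in M1 and 0.273 in M0 (edgeR). Rc3h2 was called lower in M1 without cKO_M1 replicate 9, at -0.27 (adjusted p = 0.0350, edgeR). It rose by 0.45 with stimulation in cKO (adjusted p = 0.000138, edgeR) and by 0.45 in WT (adjusted p = 0.000126, edgeR), but it was -0.08 in cKO and -0.13 in WT, neither called, when only library totals were used for scaling. Per kilobase of deposited length, Rc3h1 made up 73.2% ± 0.766 of the summed Roquin level in cKO_M1 and 70.9% ± 0.941 in WT_M1. Its share was 77.6% ± 0.423 in cKO_M0 and 77.0% ± 0.777 in WT_M0 (SD, n = 3). The lengths used were 11423 bases for Rc3h1 and 19624 for Rc3h2, and the size of these shares depends on them.

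Malt1 was lower in stimulated cKO macrophages. It had 84.96, 89.1 and 107 CPM in cKO_M1, against 135, 204 and 123 CPM in WT_M1, and the groups did not overlap. The log2 fold change was -0.72 (SE 0.15, 95% interval -1.04 to -0.39, adjusted p = 0.00422, edgeR). Without WT_M1 replicate 11, the library at 204 CPM, it was -0.48 and still called (adjusted p = 0.0129, edgeR). In M0 it had 33.1, 31.7 and 28.6 CPM in cKO_M0, against 33.6, 39.5 and 33.8 CPM in WT_M0, a difference of -0.19 that was not called (adjusted p = 0.523, edgeR). Malt1 rose with stimulation by 1.59 in cKO (adjusted p = 1.93e-07, edgeR) and by 2.11 in WT (adjusted p = 7.1e-09, edgeR). The interaction of -0.52 was not called (SE 0.22, 95% interval -0.98 to -0.06, adjusted p = 0.152, edgeR).

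Arid5a had the largest response to stimulation of the 10. It had 98.3, 96.2 and 88.2 CPM in cKO_M1, against 95.8, 91.4 and 100.3 CPM in WT_M1, which overlap, with a difference of -0.02 and an interval of -0.21 to 0.16. In M0 it had 8.93, 10.6 and 9.94 CPM in cKO_M0, against 13.7, 12.01 and 14.6 CPM in WT_M0. All cKO_M0 libraries lay below the WT_M0 libraries, by -0.45 (SE 0.09, 95% interval -0.65 to -0.25, adjusted p = 0.0386, edgeR). That call was lost in 5 of the 6 fits that left out a library, with adjusted p-values of 0.0662 to 0.257. Arid5a rose by 3.26 in cKO (adjusted p = 1.22e-13, edgeR) and by 2.84 in WT (adjusted p = 4.92e-13, edgeR). The interaction of 0.43 missed the threshold (SE 0.13, adjusted p = 0.0521, edgeR) and passed it in 8 of 19 fits with another setting or a library left out.

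**Figure D4:**
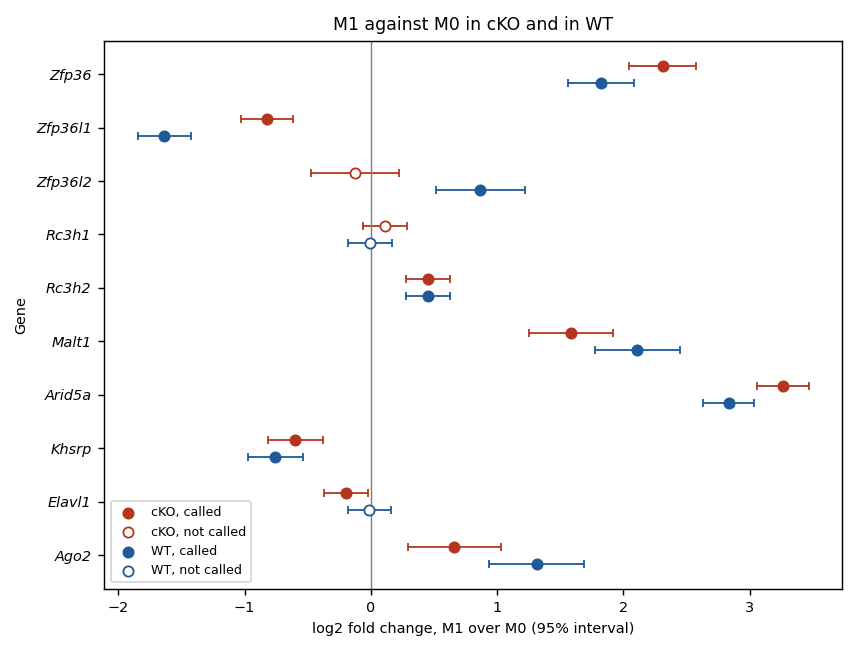
Points give the log2 fold change of M1 over M0 for each gene in cKO (red) and WT (blue), with 95% confidence intervals from edgeR; filled points were called. Arid5a lies farthest right at 3.26 in cKO and 2.84 in WT, Zfp36l1 lies left of 0 at -0.82 in cKO and -1.64 in WT, and Zfp36l2 is called in WT at 0.87 and not in cKO at -0.12.

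Khsrp and Elavl1 encode the decay-promoting KSRP and the stabilizing HuR, and neither was called between the genotypes. Khsrp had 89.1, 93.6 and 102 CPM in cKO_M1, against 81.2, 84.1 and 99.9 CPM in WT_M1, and 129, 159 and 143 CPM in cKO_M0, against 136, 160.2 and 152 CPM in WT_M0. The genotypes overlapped in M1 and in M0, with differences of 0.10 (interval -0.12 to 0.32) and -0.06 (interval -0.27 to 0.16). It fell by 0.60 with stimulation in cKO (adjusted p = 7.7e-05, edgeR) and fell by 0.76 in WT (adjusted p = 6.71e-06, edgeR).

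Elavl1 had 55.0, 52.9 and 53.2 CPM in cKO_M1, against 50.02, 56.6 and 50.9 CPM in WT_M1, and 57.7, 63.3 and 63.7 CPM in cKO_M0, against 50.1, 57.5 and 51.0 CPM in WT_M0. The cKO_M0 libraries all lay above the WT_M0 libraries, by 0.22, and this was the single positive difference among the 10 in M0 (95% interval 0.05 to 0.39, adjusted p = 0.165, edgeR). In M1 the groups overlapped, with a difference of 0.03 and an interval of -0.14 to 0.21. Elavl1 fell by 0.20 with stimulation in cKO (adjusted p = 0.0398, edgeR) and was not called in WT at -0.01 (adjusted p = 0.910, edgeR). Leaving out any of cKO_M0 replicates 2 and 3 and cKO_M1 replicates 8 and 9 ended the cKO call, with adjusted p-values of 0.0704 to 0.117.

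Ago2, the Argonaute that can itself cut a matched target, was lower in stimulated cKO macrophages. It had 125, 139 and 211 CPM in cKO_M1, against 248, 324 and 259 CPM in WT_M1. No cKO_M1 library reached the WT_M1 range, and the cKO_M1 mean was 57.1% of the WT_M1 mean, with a log2 fold change of -0.81 (SE 0.17, 95% interval -1.18 to -0.44, adjusted p = 0.00461, edgeR). In M0 it had 96.1, 117 and 87.1 CPM in cKO_M0, against 95.4, 122 and 117 CPM in WT_M0, which overlap, with a difference of -0.16 and an interval of -0.52 to 0.21. It rose with stimulation by 0.66 in cKO (adjusted p = 0.00308, edgeR) and by 1.31 in WT (adjusted p = 5.85e-06, edgeR). The interaction of -0.65 was not called (SE 0.24, adjusted p = 0.115, edgeR), but was -0.92 without cKO_M1 replicate 9 and then called (adjusted p = 0.00731, edgeR). Ago2 overlaps Chrac1, a gene on the opposite strand with 787 to 1686 counts per library, and since no source used here gives the strand setting of the counting, reads of the overlapping stretch cannot be assigned to either. The same holds for Elavl1 and Ccl25, which had 65 to 145 counts per library, for Zfp36 and Gm44710, which had 5 to 26, for Zfp36l2 and AC132455.1, which had 0 to 27, and for Khsrp and Gm17949, which had 0 to 2. Zfp36l1 overlaps Gm26669, for which no count was used here. These overlaps are from GENCODE M21 on GRCm38.

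With 3 libraries a group, every gene has a highest and a lowest library, so edge positions are common. How often a library lay at the edge over all tested genes was not counted. Among the WT_M1 libraries, replicate 11 had the highest Zfp36l2, Rc3h1, Malt1, Elavl1 and Ago2 and the lowest Zfp36, Zfp36l1 and Arid5a. Among the cKO_M1 libraries, replicate 9 had the highest Zfp36l1, Zfp36l2, Rc3h1, Rc3h2, Malt1, Khsrp and Ago2 and the lowest Arid5a. The M1 calls of Zfp36l1, Zfp36l2, Malt1 and Ago2 held in all 14 fits with another setting or a library left out, with adjusted p-values of at most 0.0443, 0.00199, 0.0233 and 0.0278 in that order of genes.

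Per kilobase of deposited length, the highest levels in M1 were those of Zfp36 and Zfp36l2, in an order that may change with other lengths. In cKO_M1 Zfp36 averaged 162 CPM per kilobase and Zfp36l2 85.3, whereas in WT_M1 Zfp36l2 averaged 203 and Zfp36 122. Khsrp came next with 21.9 CPM per kilobase in cKO_M1 and 20.5 in WT_M1. Zfp36l1 averaged 17.0 in cKO_M1 and 12.7 in WT_M1. Ago2 averaged 11.3 in cKO_M1 and 19.7 in WT_M1, and Rc3h1, Elavl1, Arid5a and Malt1 lay between 5.07 and 8.54 in either group. Rc3h2 was lowest, at 1.91 in cKO_M1 and 2.15 in WT_M1. In M0, Zfp36l2 led at 92.9 in cKO_M0 and 111 in WT_M0, and Arid5a was lowest at 0.782 in cKO_M0 and 1.07 in WT_M0.

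The stimulation differences depend on how libraries are scaled. With library totals alone the median of all genes lay at -0.58 in cKO and -0.65 in WT, against -0.04 in cKO and -0.07 in WT with TMM. Of the stimulation results above, Rc3h1 turned to -0.42 in cKO and -0.59 in WT on library totals and was called lower in both, and Elavl1 was called lower in WT at -0.60. On library totals Zfp36l2 was called lower in cKO at -0.66 and was 0.28 in WT, which was not called (adjusted p = 0.123, edgeR), and Ago2 was 0.13 in cKO, which was not called (adjusted p = 0.504, edgeR). Over all genes, that scaling gave 2778 higher and 8691 lower in cKO and 2769 higher and 9000 lower in WT, against 5168 and 5441 in cKO and 5175 and 5612 in WT with TMM.

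The machinery these regulators use was examined in 11 lists of genes, beside the background of 8.98% called higher and 9.67% called lower in M1. Other AU-rich element binding proteins had 30 of 35 listed genes tested, of which 1 was higher and 1 lower in cKO_M1. Cpeb4, a cytoplasmic polyadenylation factor, was lower at 249.9 ± 56.8 CPM in cKO_M1, against 517 ± 64.1 CPM in WT_M1 (log2 fold change -1.05, adjusted p = 0.00011, edgeR). Igf2bp3, an mRNA-binding protein, was higher at 4.85 ± 0.989 CPM in cKO_M1, against 0.711 ± 0.225 CPM in WT_M1 (2.77, adjusted p = 0.00361, edgeR). With DESeq2 1 was higher and 4 lower, with limma-voom 0 and 2, and at an unadjusted p under 0.05 in edgeR 5 and 7. Over all tested genes in M1, DESeq2 called 1493 higher and 1831 lower, and limma-voom 1235 and 1425. At an unadjusted p the share of all genes was not counted, here or for the lists below, so those counts have no background. In M0 none of the 30 was called by edgeR, with 4 higher and 2 lower at an unadjusted p under 0.05. DESeq2 called 1 of them higher in M0, beside 410 higher and 464 lower over all tested genes.

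Deadenylation is the step that TTP and Roquins recruit. Of 22 CCR4-NOT and other deadenylation genes, 3 were higher and 2 lower in cKO_M1. Btg2, an antiproliferative factor that binds the deadenylases, had 33.2 ± 5.94 CPM in cKO_M1, against 14.8 ± 3.11 CPM in WT_M1 (1.17, adjusted p = 0.000401, edgeR), and Tob1, a relative with a like role, was higher at 0.45, while the ubiquitin ligase Cnot4 was lower at -0.36. Of 20 decapping genes, 2 were higher and 1 lower, and the decapping scaffold Patl1 had 95.5 ± 18.5 CPM in cKO_M1, against 152 ± 19.6 CPM in WT_M1 (-0.67, adjusted p = 0.00215, edgeR). None of 18 exosome and Ski complex genes was called by edgeR, the smallest p being that of Skiv2l2 at 0.25 (adjusted p = 0.0591). At an unadjusted p under 0.05, 3 of them were higher and 1 lower, and DESeq2 called 1 lower. Of 16 nonsense-mediated decay genes, 2 were higher, with Upf1, the central helicase, at 0.48, and 1 was lower, Pnrc1 at -0.43. With a library left out, 0 to 1 of these were higher and 0 to 1 lower. In the same fits, 0 to 3 decapping genes were higher and 1 lower, and 1 to 3 deadenylation genes were higher and 0 to 4 lower.

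MicroRNA machinery beside Ago2 had 2 of 14 genes higher and 1 lower in cKO_M1. Dgcr8, the partner of Drosha, had 11.7 ± 1.05 CPM in cKO_M1, against 6.08 ± 1.21 CPM in WT_M1 (0.95, adjusted p = 0.000302, edgeR), Tnrc6b, which bridges Argonaute to CCR4-NOT, was higher at 0.37, and Limd1 was lower at -0.44. In M0, Ago4 was lower at 21.9 ± 0.873 CPM in cKO_M0, against 31.1 ± 2.38 CPM in WT_M0 (-0.51, adjusted p = 0.0247, edgeR). It was the 1 gene of the 14 called in M0, where 0.953% of all tested genes were called lower. The call was lost without WT_M0 replicate 4, WT_M0 replicate 6, cKO_M0 replicate 2 or cKO_M0 replicate 3. Over all tested genes, those fits called 8, 4, 17 and 1 genes lower, in that order. Around Malt1, 6 of 15 CARD, BCL10 and MALT1 partner and substrate genes were higher and 1 was lower in cKO_M1. Nfkbiz, encoding an inducible nuclear IkB protein, had 114 ± 5.53 CPM in cKO_M1, against 55.5 ± 11.7 CPM in WT_M1 (1.04, adjusted p = 0.000197, edgeR), and Traf6, a ubiquitin ligase of Toll-like receptor signalling, was lower at -0.50. Of 19 p38-MK2 and phosphatase genes that act on TTP, 4 were higher and 1 lower. Among the higher were the p38 kinase Mapk14 at 0.29 and the phosphatase subunit Ppp2cb at 0.40. The lower gene was Ppp2r1a, also a phosphatase subunit, at -0.25 (adjusted p = 0.0420, edgeR). With a library left out, 1 to 3 of the 19 were higher and 0 to 1 lower.

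Among mRNAs known as targets, more were called higher than lower in cKO_M1. Of 27 reported TTP targets, 22 were tested, and 10 were higher and 5 lower in cKO_M1, with a median of 0.46 against 0.02 over all tested genes. Tnf, the best known TTP target, had 411 ± 39.8 CPM in cKO_M1, against 272 ± 17.3 CPM in WT_M1 (0.60, adjusted p = 0.00117, edgeR). Il1b had 204 ± 33.8 CPM in cKO_M1, against 69.1 ± 6.36 CPM in WT_M1 (1.56, adjusted p = 3.48e-05, edgeR). Il12b, at 7.03 ± 1.04 CPM in cKO_M1, against 24.0 ± 10.3 CPM in WT_M1, and Pim1 were lower, at -1.77 and -0.59.

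Of 14 reported Roquin or Arid5a targets, 12 were tested, and 6 were higher and none lower in cKO_M1 by edgeR, with a median of 0.48. At an unadjusted p under 0.05, 1 was lower, Id3 at -0.76 (adjusted p = 0.0773, edgeR), which DESeq2 called. Ier3, an immediate early gene, had 98.5 ± 5.44 CPM in cKO_M1, against 70.6 ± 4.49 CPM in WT_M1 (0.48, adjusted p = 0.0013, edgeR). In M0, 4 of 22 TTP targets and 2 of 12 Roquin or Arid5a targets were higher and none was lower by edgeR, where 0.662% of all tested genes were called higher. None of either list was called higher without cKO_M0 replicate 3, WT_M0 replicate 4 or WT_M0 replicate 6, and 1 TTP target and no Roquin or Arid5a target without cKO_M0 replicate 2. Over all tested genes, those fits called 0, 4, 0 and 15 genes higher, in that order. The loss of calls was therefore not particular to these lists. Without WT_M0 replicate 5 or without cKO_M0 replicate 1, 5 TTP targets and 2 Roquin or Arid5a targets were called higher. With all libraries and an unadjusted p under 0.05, 9 TTP targets were higher and 3 lower. By the same measure 3 Roquin or Arid5a targets were higher and 1 lower. DESeq2 called 7 TTP targets higher and 2 lower, and 3 Roquin or Arid5a targets higher and 0 lower. Over all tested genes it called 410 higher and 464 lower in M0. Ccl2, a monocyte chemokine, had 55.1 ± 10.99 CPM in cKO_M0, against 19.4 ± 5.56 CPM in WT_M0 (1.51, adjusted p = 0.0105, edgeR), and its adjusted p was 0.0889 when cKO_M0 replicate 3 was left out, 0.0675 when WT_M0 replicate 4 was, and 0.0961 when WT_M0 replicate 6 was (edgeR). These lists overlap in genes, Tnf for example, and were read by their counts alone. The summed markers of stimulated macrophages, higher in the cKO_M1 libraries than in those of WT_M1, are mostly Nos2, which was not called (0.43, adjusted p = 0.137, edgeR). Of the 6 markers Il6 was called higher and Il12b lower, and both are also in these lists. The part of the markers in these differences was not tested. In the Zc3h12 family of 4 genes, Zc3h12c was the one called in M1, and none was called in M0, by edgeR or DESeq2 or at an unadjusted p under 0.05.

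The same lists were counted after stimulation, where the background was 34.2% higher in each genotype, with 36.0% lower in cKO and 37.1% lower in WT. Of 22 TTP targets, 20 were higher and 1 lower in cKO, and 19 were higher and 2 lower in WT. Of 18 exosome and Ski complex genes, 2 were higher and 11 lower in cKO, and 2 were higher and 9 lower in WT. In WT, the exosome nuclease Dis3 had 5.76 ± 0.819 CPM in WT_M1, against 18.5 ± 0.865 CPM in WT_M0 (log2 fold change -1.68). Of 22 deadenylation genes, 4 were higher and 8 lower in cKO, and 4 were higher and 11 lower in WT.

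**Figure D5:**
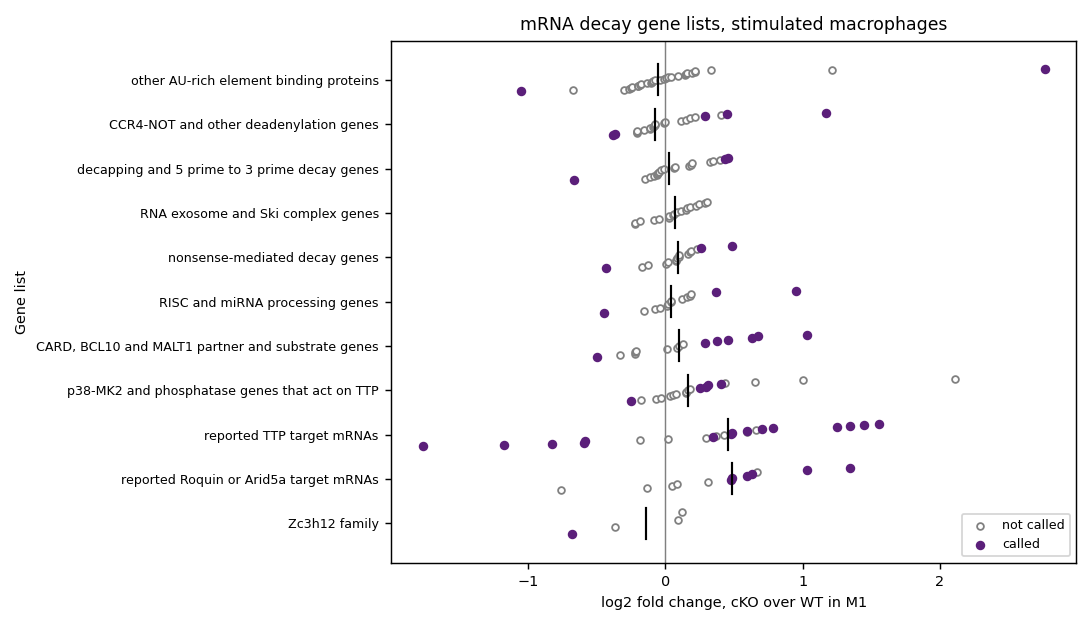
Each point is 1 tested gene of a list, placed by its log2 fold change of cKO over WT in M1; filled points were called and vertical bars mark list medians. The reported TTP targets run from -1.77 to 1.56 with a median of 0.46, and the Roquin or Arid5a targets have a median of 0.48, while the exosome list has no filled point.

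The genes most like each member were found as those with the smallest root mean square difference in log2 CPM, each gene centred on its own mean, over the 12 libraries. For Zfp36 these were N4bp1 at 0.09, Samhd1 at 0.10 and Ehd1 at 0.13. For Zfp36l1 they were Tjp3 at 0.08, Vsir at 0.11 and Ulk2 at 0.13, and for Zfp36l2 Wdr91 at 0.12, Zbtb38 at 0.14 and Tmem82 at 0.14. Malt1 was nearest to Cry1 at 0.15, Arid5a to Grina at 0.10 and Ago2 to Phospho1 at 0.13. Rc3h1 was nearest to Slc44a2 at 0.04, Rc3h2 to Hps4 at 0.05, Khsrp to Pygb at 0.07 and Elavl1 to Cpsf2 at 0.04, but these 4 genes vary little themselves, with standard deviations of 0.09 to 0.37. The 12 libraries fall into 4 groups of 3 and are not independent points.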

How the data were processed

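Counts of 12 libraries were analysed, with groups taken from the sample titles. The deposited values are raw counts per gene with a gene length, and the authors applied no normalization to them. Per the submitters' processing notes, the tools were featureCounts 2.0.3, HISAT2 2.2.1, SAMtools 1.16.1 and Trimmomatic 0.39, and the build was GRCm39. The strand setting, the treatment of multiply mapping reads and the release of the annotation were not given in the sources used. Of the values from 1 to 10, 60.9% were even, which may come from counting both reads of a pair, so counts were also halved as an alternative. Symbols were matched to 52073 of 56980 IDs.

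From the deposited counts, genes passing filterByExpr (minimum count 10, minimum total 15) were scaled by TMM and fitted with edgeR 4.0.16 (R 4.3.3), with 1 mean per group; the fit was tested on simulated counts. Alternatives used DESeq2 1.42.0, limma 3.58.1 (voom), other filters, other scalings and left-out libraries. Sequences came from GENCODE M21 and RefSeq on GRCm38, used for letters and their own coordinates. Within each group no library repeated another, since those of a group differed beyond counting noise (chi-square per degree of freedom of 13.2 or more). Libraries of different groups were not compared in this way.

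The rule for naming genes covered all 10 members, the 3 genes most alike to each and, from each list, the genes of smallest p, and the text names a part of these. The members and lists were chosen with earlier results of these data known. With 41721452 or more counts per library, spread between libraries limits precision more than counting does.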

Additional observations from a re-analysis of the deposited data

Results flagged for a closer look

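For 2 of the 10 genes, Zfp36l1 and Zfp36l2, the effect of genotype differed between stimulated and unstimulated macrophages by the interaction test over all genes, where 8.16% of tested genes did so. For Zfp36l1, the difference of cKO and WT was 0.42 in M1 and -0.39 in M0, so the interaction was 0.81 (SE 0.14, adjusted p = 0.00336, edgeR). The cKO_M1 libraries were all above those of WT_M1, and the cKO_M0 libraries were all below those of WT_M0.

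For Zfp36l2, the difference was -1.25 in M1 and -0.26 in M0, so the interaction was -0.99 (SE 0.23, adjusted p = 0.0183, edgeR). Without cKO_M1 replicate 8 it was no longer called (adjusted p = 0.0585, edgeR). The libraries of cKO_M1 and cKO_M0 all lay below those of the WT group in the same condition.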

How the results depend on the processing

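No paired analysis was possible because the replicate numbers run from 1 to 12 over the groups and none is shared. In M0, 244 genes were called in all, against 874 with DESeq2, 491 with limma-voom, 1182 with no filter on low counts (709 higher and 473 lower, against 100 and 144), 394 with the compared groups alone and 1 to 407 with a library left out. In M1, 2818 were called, against 1658 to 3082 with a library left out, and on library totals 1982 were higher and 1239 lower, against 1357 and 1461. For the interaction, 1233 were called, against 1884 with DESeq2, 1972 with no filter and 565 to 1576 with a library left out, and on library totals 796 were higher and 519 lower, against 608 and 625. Of the 10 members, 1 was called in M0, against 2 with DESeq2, at least 1 CPM in 3 libraries, halved counts, limma-voom or no filter, and 0 to 2 with a library left out. For the interaction 2 were called, against 5 with no filter and 1 to 4 with a library left out.

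Signs turned mostly for small differences. The called rise of Rc3h2 with stimulation, 0.45 in each genotype, also turned on library totals. On library totals, M1 differences were 0.047 for Rc3h1 and 0.031 for Arid5a, stimulation values were -0.42 for Rc3h1 in cKO, -0.13 for Rc3h2 in WT and -0.082 for Rc3h2 in cKO, and the interaction of Rc3h2 was 0.047. In WT, stimulation gave Rc3h1 0.020 with DESeq2, 0.020 with its size factors in edgeR and 0.026 with the compared groups alone, and gave Elavl1 0.013, 0.013 and 0.019. The interaction of Rc3h2 was 0.0058 at the filter of 1 CPM and 0.0029 with halved counts. With a library left out, M0 differences ran from -0.13 to 0.011 for Zfp36 and -0.13 to 0.018 for Khsrp, and M1 differences ran from -0.090 to 0.055 for Rc3h1, -0.071 to 0.0091 for Arid5a and -0.0078 to 0.075 for Elavl1. Stimulation values ran from -0.029 to 0.039 for Rc3h1 in WT, -0.055 to 0.051 for Elavl1 in WT and -0.42 to 0.041 for Zfp36l2 in cKO, and the interaction of Rc3h2 ran from -0.087 to 0.053. The cause was not tested. Leaving out libraries for the counts of the gene lists was chosen after seeing the data. Apart from those counts, of 360 results with a library left out, 317 kept direction and side of the threshold, as did 356 of 390 under the other settings. With 3 libraries a group, small differences may go uncalled.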
